A study of Mus musculus with 5 samples.

Results

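The MS4A genes encode a family of small proteins that cross the cell membrane several times and sit beside receptors, whose signaling some of them adjust. The 10 members described here are Ms4a4a, Ms4a4b, Ms4a4c, Ms4a4d, Ms4a6b, Ms4a6c, Ms4a6d, Ms4a7, Ms4a8a and Ms4a14, chosen by name from the family's cluster on mouse chromosome 19. Of these 10 genes, 9 had a listed transcript in at least 1 library, among 17058 such genes in the series, and 7 passed the filter on low counts, among 12576 genes tested. No transcript of Ms4a14 was listed in any library.

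RNA-Seq was performed on bone marrow–derived macrophages (BMDMs) of female BALB/c WT mice that had shared medium with 4T1 cells, a mouse breast cancer line, for 48 hours across a porous membrane. The BMDMs had been differentiated with macrophage colony-stimulating factor. In 2 libraries the cancer cells were unedited parental (WT) 4T1 cells, and in 3 libraries they were Adam17-/- 4T1 cells of the line labelled 2.8, in which CRISPR/Cas9 had removed the membrane protease ADAM17. The macrophages of both groups carried no engineered allele. A single knockout line stands for the genotype, the mice were young adults by the study's methods, and nothing in the labels says that the repeats came from separate animals, so p-values measure the spread between these libraries, which may be technical.

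The libraries held 14658694 to 20788373 estimated counts, and 3 counts, taken as the floor, corresponded to 0.157 to 0.197 CPM. CPM are counts scaled to the library total over the genes tested, after its multiplication by edgeR's TMM factor. Counts of replicate libraries were not equal within sampling noise, with a chi-square per degree of freedom of 25.7 between the 2 WT libraries and 5.22 to 6.32 among the 3 Adam17-/- libraries, against 44.5 to 84.4 between groups, so the WT libraries stood farther apart from each other than the Adam17-/- libraries did. Since the knockout is in the 4T1 cells and the sequenced macrophages were unedited, Adam17 RNA in these libraries is no check of it. It was 198 and 199.6 CPM with WT 4T1 cells and 152, 164 and 161 CPM with Adam17-/- 4T1 cells (log2 fold change −0.32, SE 0.08, edgeR adjusted p = 0.0129). The macrophage receptor gene Csf1r was at 4047 to 5615 CPM, and the epithelial marker Epcam had 1 count in a single WT library.

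The best known relatives of these genes lie in the same cluster. Ms4a1 encodes the B cell antigen CD20, Ms4a2 the beta chain of the high-affinity IgE receptor of mast cells and basophils, and Ms4a3 a protein of granulocyte and monocyte precursors. In macrophages the family is known above all through MS4A4A, a partner of the beta-glucan receptor Dectin-1, and Ms4a7 is known as a marker of macrophages that distinguishes some tissue macrophage populations from others. The products of the Ms4a6 genes are close relatives of each other found in myeloid cells, and Ms4a4b is best known from T cells.

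The members lie within 537334 bases of chromosome 19 (GRCm38, chr19:11067471-11604804). In order along the chromosome, Ms4a8a (chr19:11067471-11081103), Ms4a14 (chr19:11301249-11315877) and Ms4a7 (chr19:11321039-11336146) are on the minus strand. Ms4a4a (chr19:11375488-11392915), Ms4a4c (chr19:11404717-11427246), Ms4a4b (chr19:11443558-11463549), Ms4a6c (chr19:11469353-11487182), Ms4a6b (chr19:11518559-11530403) and Ms4a4d (chr19:11536794-11558466) follow on the plus strand, and Ms4a6d (chr19:11586606-11604804) closes the run on the minus strand.

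Several members are similar in sequence, which could bear on how reads were assigned. Over their coding sequences (GENCODE annotation of GRCm38), Ms4a4b and Ms4a4c were 91.8% identical, Ms4a4c and Ms4a4d 85.8%, Ms4a6b and Ms4a6d 80.2%, and Ms4a6b and Ms4a6c 74.6%. Ms4a4a shared 59.1 to 59.9% with Ms4a4b, Ms4a4c and Ms4a4d, and the lowest identity among the members compared was 43.5%, between Ms4a4d and Ms4a8a. Ms4a4b and Ms4a4c share an identical run of 127 coding bases, and their counts were whole numbers, as given below. Ms4a6b and Ms4a6d share an identical run of 81 coding bases, printed as the longest between these 2 genes. By the study's methods the reads were longer than the printed run, so no full-length read lies wholly within it. The printed run covers coding positions 100 to 180 of each gene and spans exons 2 and 3. It lies at chr19:11520438-11521703 (plus strand) in Ms4a6b and chr19:11601932-11603193 (minus strand) in Ms4a6d.
Ms4a6b and Ms4a6d shared run: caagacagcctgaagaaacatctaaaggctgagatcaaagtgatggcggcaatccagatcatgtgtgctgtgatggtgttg

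Part of the reads were divided between genes in the estimated counts. Counts of Ms4a6b and Ms4a6d were not whole numbers in any of the 5 libraries, and in 4 of 5 libraries their fractions added up to a whole number (tolerance 0.021). In the exception, WT replicate 2, the counts were 2332.14 for Ms4a6b and 10135.9 for Ms4a6d. Counts of Ms4a6c were also not whole in any of the 5 libraries, with no partner found among the listed genes. Those of Ms4a4a, Ms4a4b, Ms4a4c, Ms4a4d, Ms4a7 and Ms4a8a were whole, within a tolerance of 0.011. The values of Ms4a6b, Ms4a6c and Ms4a6d are therefore estimates that depend on how the authors' quantification split shared reads.

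The 250 bases before the annotated start (RefSeq, GRCm38.p6) are given for 4 of the abundant members, the 3 whose level differed between the groups and Ms4a4a, whose level did not pass the test. Capitals mark matches to the interferon-stimulated response element (ISRE) core, GAAANNGAA, on either strand. The windows are chr19:11336147-11336396 (minus strand) for Ms4a7, chr19:11518309-11518558 (plus) for Ms4a6b, chr19:11469118-11469367 (plus) for Ms4a6c, where the RefSeq start used lies inside the gene span given above, and chr19:11375238-11375487 (plus) for Ms4a4a.
Ms4a7: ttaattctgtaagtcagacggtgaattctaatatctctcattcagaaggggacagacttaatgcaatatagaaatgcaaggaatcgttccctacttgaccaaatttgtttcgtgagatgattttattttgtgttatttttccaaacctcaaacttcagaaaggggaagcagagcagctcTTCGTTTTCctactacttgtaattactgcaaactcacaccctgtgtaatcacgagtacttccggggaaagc
Ms4a6b: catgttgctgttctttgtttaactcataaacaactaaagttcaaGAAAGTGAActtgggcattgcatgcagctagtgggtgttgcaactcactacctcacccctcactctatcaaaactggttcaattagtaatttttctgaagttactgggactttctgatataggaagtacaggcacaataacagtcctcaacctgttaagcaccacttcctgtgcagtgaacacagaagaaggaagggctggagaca
Ms4a6c: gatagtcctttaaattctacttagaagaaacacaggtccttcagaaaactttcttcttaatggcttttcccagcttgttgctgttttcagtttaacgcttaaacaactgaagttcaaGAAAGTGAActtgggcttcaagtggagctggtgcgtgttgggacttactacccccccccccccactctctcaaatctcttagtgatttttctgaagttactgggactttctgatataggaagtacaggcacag
Ms4a4a: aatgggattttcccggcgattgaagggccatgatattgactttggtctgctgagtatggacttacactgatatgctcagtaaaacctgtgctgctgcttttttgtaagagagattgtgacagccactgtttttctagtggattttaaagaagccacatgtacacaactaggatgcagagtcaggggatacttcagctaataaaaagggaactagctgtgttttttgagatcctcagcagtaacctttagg

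The ISRE core lay 71 bases before the start of Ms4a7 as the reverse complement, 206 bases before that of Ms4a6b and 133 bases before that of Ms4a6c, and Ms4a4a had no match. A second annotated start of Ms4a7 had the core 148 bases before it. Among the 9 members with a window (10 windows), no window of the other 6 held it, and the table had no window for Ms4a6d. Of all 32851 promoter windows of this length, 7.13% held the ISRE core. The windows of Ms4a6b and Ms4a6c are themselves alike, with 83.5% identical positions over 182 aligned columns, so their matches cannot be counted as separate.

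The other motifs were also searched on both strands. The gamma-activated site TTCNNNGAA and the PU.1 core GAGGAAGT were in none of the 10 windows, against 7.02 and 2.44% of all windows. The AP-1 site TGANTCA was in windows of Ms4a14, Ms4a8a and the second start of Ms4a7 (6.75% of all windows), the MAF recognition site TGCTGAC in that of Ms4a8a (3.81%), and the TATA box TATAAA in those of Ms4a14 and Ms4a4b (12.4%). A match describes these letters only and is not evidence that a factor binds.

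Next, the levels of the members were compared with each other in FPKM, which corrects for transcript length. Ms4a6d had the highest level, 301 and 396 FPKM with WT 4T1 cells and 353, 342 and 322 FPKM with Adam17-/- 4T1 cells, and ranked 164 of 17058 genes by its mean over the 5 libraries. Ms4a4a followed (mean 196 FPKM, rank 280), then Ms4a6c (132 FPKM, rank 451), Ms4a7 (83.2 FPKM, rank 783) and Ms4a6b (54.95 FPKM, rank 1234). These 5 genes held 99.4 to 99.6% of the summed FPKM of the members in each library. In every library Ms4a6d was above Ms4a4a, Ms4a4a above Ms4a6c, Ms4a6c above Ms4a7 and Ms4a7 above Ms4a6b, although over all libraries the ranges of Ms4a7 (56.7 to 103 FPKM) and Ms4a6b (43.3 to 74.9 FPKM) overlapped.

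The other members were low. Ms4a4c, known as an interferon-responsive member, averaged 3.03 FPKM (rank 9157) and Ms4a4b 0.544 FPKM (rank 11549). Ms4a8a, reported in some alternatively activated macrophages, averaged 0.252 FPKM (rank 12379) and Ms4a4d 0.032 FPKM (rank 14664). Levels of neighbors in this order overlapped over the libraries for Ms4a4b and Ms4a8a and for Ms4a8a and Ms4a4d.

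**Figure D1:**
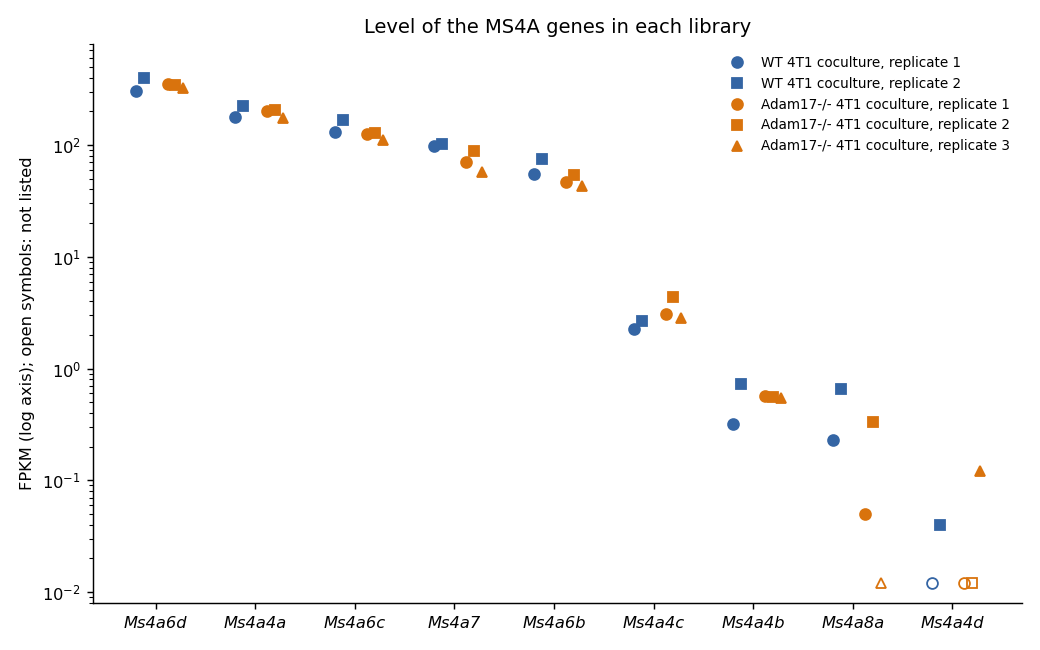
FPKM (log axis) of the 9 listed members in each of the 5 libraries, WT 4T1 cocultures in blue and Adam17-/- 4T1 cocultures in orange, with circle, square and triangle for replicates 1, 2 and 3 and open symbols at the bottom for genes not listed in a library. Ms4a6d, Ms4a4a, Ms4a6c, Ms4a7 and Ms4a6b lie above 40 FPKM in each library, and the other 4 below 5.

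To ask whether ADAM17 in the cancer cells changed these genes in macrophages, the 2 groups were compared with edgeR's quasi-likelihood test, with Benjamini-Hochberg adjustment over all 12576 genes and a threshold of 0.05. Ms4a7, Ms4a6b and Ms4a6c were lower in the macrophages that had grown beside Adam17-/- 4T1 cells, whereas the 2 most abundant members, Ms4a6d and Ms4a4a, did not pass the test. Thus 3 of the 7 members tested were lower and 0 were higher, against 16.8% of all genes tested that were lower and 14.9% that were higher. With the further demand that the log2 fold change reach 1 in either direction, 0 members and 4.22% of all genes passed. The libraries of the 2 groups did not overlap for 3 of the 7 members, against 58.1% of all genes. The median log2 fold change of the 7 members was −0.18, and that of all genes 0.01. The calls depended on the libraries used. Without Adam17-/- replicate 1 none of the 3 passed (edgeR adjusted p = 0.057 for Ms4a7, 0.0531 for Ms4a6b and 0.0682 for Ms4a6c), although the log2 fold changes were −0.60, −0.54 and −0.44 and calls over all genes also fell, from 2114 to 926 lower. Without Adam17-/- replicate 3 only Ms4a7 passed (edgeR adjusted p = 0.0366, against 0.0516 for Ms4a6b and 0.0868 for Ms4a6c). Without WT replicate 1 the count was 5, with Ms4a6d (edgeR adjusted p = 0.0054) and Ms4a4a (0.0185) added, but that fit has a single WT library, assumed to vary like the Adam17-/- libraries, which lay closer together than the WT libraries did.

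Ms4a7 had the largest log2 fold change among the members that passed, although that of Ms4a6b was larger without WT replicate 1 (−0.76 against −0.64) or without Adam17-/- replicate 3 (−0.50 against −0.48), and the 2 were level with the replicate block (−0.51 each). Its level was 135 and 135 CPM with WT 4T1 cells and 84.5, 107 and 69.1 CPM with Adam17-/- 4T1 cells. The WT libraries were nearly equal, all 3 Adam17-/- libraries were below them, and the Adam17-/- libraries differed up to 1.55-fold among themselves. The means were 135 ± 0.148 CPM (SD, n = 2) and 86.9 ± 19.1 CPM (SD, n = 3), and the log2 fold change was −0.64 (SE 0.15, 95% interval −0.97 to −0.30, edgeR adjusted p = 0.0113).

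Ms4a6b, a member expressed in T cells as well as myeloid cells, was 97.9 and 126 CPM with WT 4T1 cells and 72.6, 84.2 and 67.8 CPM with Adam17-/- 4T1 cells. All Adam17-/- libraries were below both WT libraries, of which replicate 2 was 1.29-fold above replicate 1. The means were 112 ± 20.04 CPM (SD, n = 2) and 74.9 ± 8.44 CPM (SD, n = 3), and the log2 fold change was −0.58 (SE 0.13, 95% interval −0.86 to −0.30, edgeR adjusted p = 0.0083). When the reads of Ms4a6b and Ms4a6d were summed before the fit, the pair was 535 and 675 CPM with WT 4T1 cells and 521, 523 and 482 CPM with Adam17-/- 4T1 cells, with a log2 fold change of −0.25 (SE 0.11, edgeR adjusted p = 0.0986). Most counts of this sum are those of Ms4a6d, so it says little of Ms4a6b alone.

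Ms4a6c, which is abundant in monocytes and macrophages, was 234 and 293 CPM with WT 4T1 cells and 200.3, 207 and 178 CPM with Adam17-/- 4T1 cells. The groups did not overlap, and WT replicate 2 was 1.25-fold above replicate 1. The means were 264 ± 41.5 CPM (SD, n = 2) and 195 ± 15.2 CPM (SD, n = 3), and the log2 fold change was −0.44 (SE 0.11, 95% interval −0.68 to −0.19, edgeR adjusted p = 0.0157). Ms4a6c was the least secure of the calls. Its log2 fold change was −0.27 without WT replicate 2. It did not pass with library size only (−0.29, edgeR adjusted p = 0.0904) or in limma on log2(FPKM + 0.1) (−0.29, adjusted p = 0.107). Nor did it pass with the replicate number as a block in edgeR (−0.36, adjusted p = 0.0894). That block fit takes nothing of the group difference from Adam17-/- replicate 3, which has no WT library of the same number.

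Ms4a6d, whose product has been linked to the macrophage receptor VSIG4, was 438 and 549 CPM with WT 4T1 cells and 448, 439 and 415 CPM with Adam17-/- 4T1 cells. The WT libraries lay on both sides of the highest Adam17-/- library. The log2 fold change was −0.18 (SE 0.10, 95% interval −0.42 to 0.05, edgeR adjusted p = 0.201). With 1 library left out it ran from −0.34 without WT replicate 1 to −0.01 without WT replicate 2.

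Ms4a4a, the Dectin-1 partner, was 179 and 215 CPM with WT 4T1 cells and 178, 185 and 157 CPM with Adam17-/- 4T1 cells. The groups overlapped, and WT replicate 2 was again the highest library, 1.20-fold above replicate 1. The log2 fold change was −0.18 (SE 0.11, 95% interval −0.42 to 0.05, edgeR adjusted p = 0.211). It was −0.31 without WT replicate 1 and −0.05 without WT replicate 2.

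**Figure D2:**
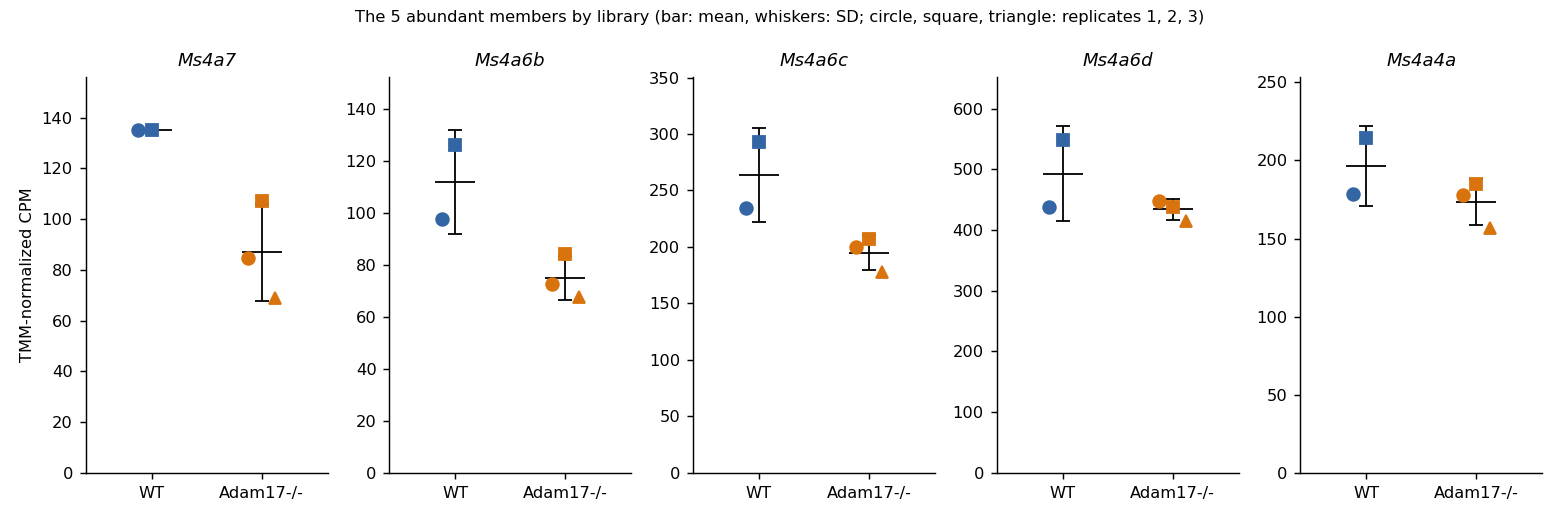
CPM scaled by edgeR's TMM factors (axes from 0, each gene on its own scale) of the 5 abundant members, by library, with the group mean as a bar and the SD as whiskers (n = 2 WT and n = 3 Adam17-/- libraries). For Ms4a7, Ms4a6b and Ms4a6c all Adam17-/- points lie below both WT points, whereas the groups overlap for Ms4a6d and Ms4a4a.

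Among the low members, Ms4a4c had 77 and 85 counts with WT 4T1 cells and 89, 105 and 86 counts with Adam17-/- 4T1 cells. On the CPM scale these were 4.03 and 4.60 against 4.87, 6.91 and 4.55, with overlap, and the log2 fold change was 0.32 (SE 0.21, 95% interval −0.15 to 0.80, edgeR adjusted p = 0.265). Ms4a4b had 8 and 17 counts with WT 4T1 cells and 12, 10 and 12 with Adam17-/- 4T1 cells, with a log2 fold change of −0.04 (SE 0.43, edgeR adjusted p = 0.956) whose sign changed with the scaling. Ms4a8a had 5 and 13 counts with WT 4T1 cells and 1 and 5 counts in Adam17-/- replicates 1 and 2, and was not listed in replicate 3. Ms4a4d had 1 count in WT replicate 2 and 3 counts in Adam17-/- replicate 3 and was not listed in the other libraries. Ms4a8a and Ms4a4d did not pass the filter on low counts, and no member was added to the 3 lower or 0 higher when the filter was left out.

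**Figure D3:**
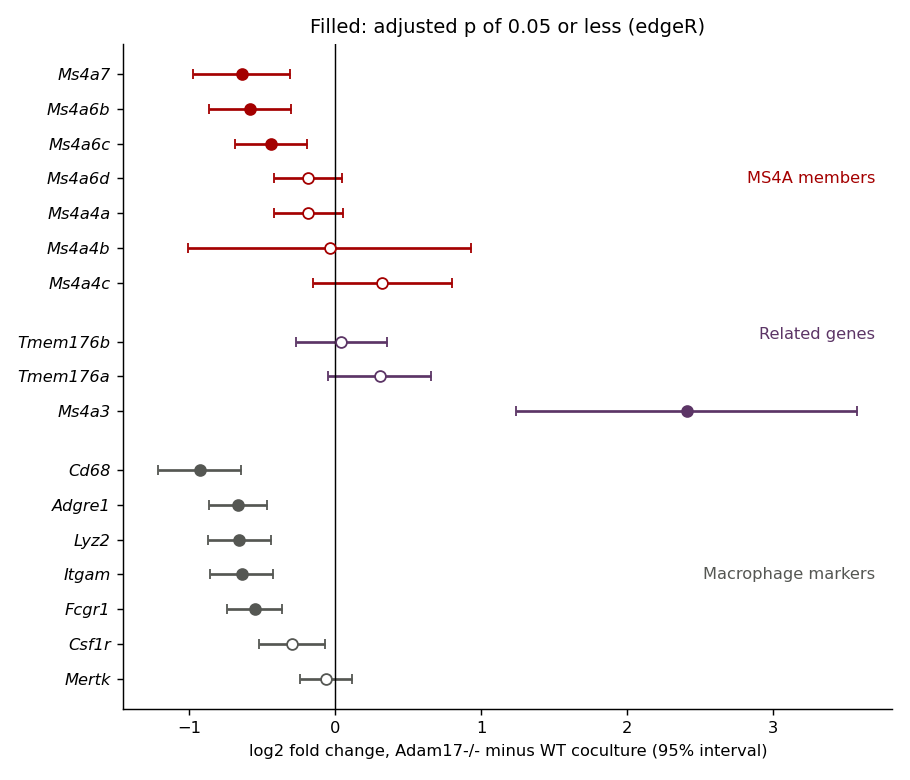
Log2 fold change (Adam17-/- minus WT coculture) with its 95% interval for the 7 members tested, 3 related genes and 7 macrophage markers, filled where the edgeR adjusted p was 0.05 or less. Ms4a7, Ms4a6b and Ms4a6c lie between the values of Lyz2 (−0.65) and Csf1r (−0.29), and Ms4a3 lies at 2.41 with a wide interval.

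Because a scaling factor moves all genes of a library alike, the abundant members were also set against Ms4a6d within each library. Per 100 counts of Ms4a6d, there were 53.5 and 53.4 counts of Ms4a6c with WT 4T1 cells and 44.7, 47.1 and 42.9 with Adam17-/- 4T1 cells. For Ms4a6b these were 22.4 and 23.0 against 16.2, 19.2 and 16.3, and for Ms4a7 30.9 and 24.6 against 18.8, 24.4 and 16.7. The Adam17-/- libraries were below the WT libraries for all 3 genes. Ms4a4a gave 40.8 and 39.1 against 39.7, 42.1 and 37.8, and Ms4a4c 0.921 and 0.839 against 1.09, 1.57 and 1.10, with the groups overlapping for Ms4a4a and apart, with Adam17-/- higher, for Ms4a4c. The log2 differences were −0.25 for Ms4a6c, −0.40 for Ms4a6b, −0.48 for Ms4a7, 0.00 for Ms4a4a and 0.49 for Ms4a4c. With 2 against 3 libraries a two-sided exact permutation test cannot give a p under 0.2, the value found for each of the 4 ratios whose groups were apart (0.25 after Benjamini-Hochberg adjustment over 5 ratios), so no ratio could pass. The ratio of Ms4a6b to Ms4a6d also depends on the split of their shared reads.

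**Figure D4:**
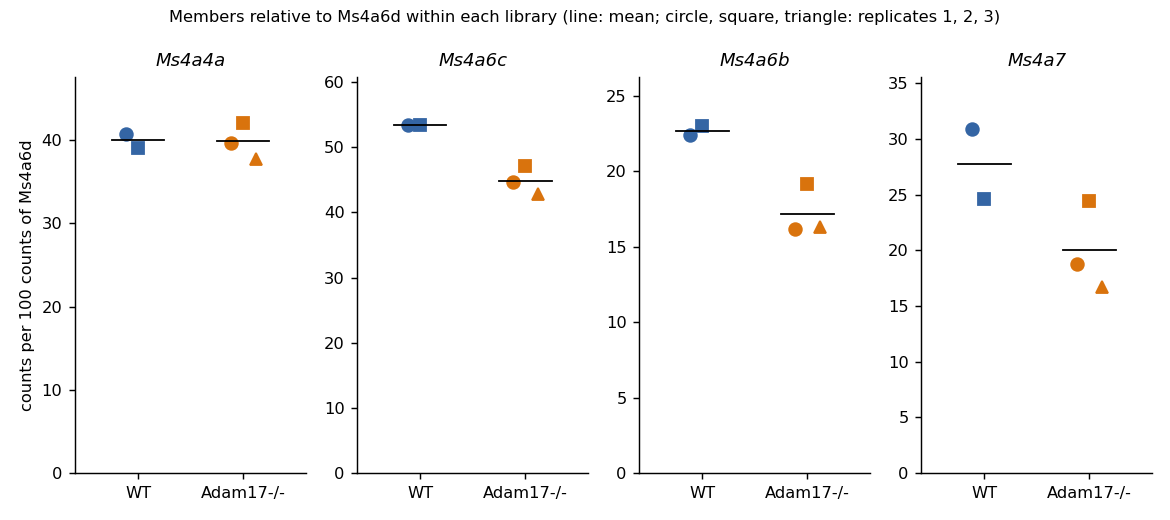
Estimated counts of Ms4a4a, Ms4a6c, Ms4a6b and Ms4a7 per 100 counts of Ms4a6d in the same library (axes from 0, line at the group mean). The 2 groups overlap for Ms4a4a around 40 and are apart for the other 3 genes, most narrowly for Ms4a7, where WT replicate 2 (24.6) and Adam17-/- replicate 2 (24.4) nearly meet.

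The members were also expressed as shares of their summed FPKM, other MS4A genes left out. Ms4a6d made up 39.4 and 40.9% with WT 4T1 cells and 44.1, 41.4 and 45.4% with Adam17-/- 4T1 cells, and Ms4a4a 23.1 and 23.0% against 25.2, 25.1 and 24.6%, with the groups apart, unlike its ratio to Ms4a6d. Ms4a6c made up 16.9 and 17.3% against 15.6, 15.6 and 15.4%, and Ms4a6b 7.3 and 7.7% against 5.9, 6.5 and 6.1%. Ms4a7 made up 12.9 and 10.6% against 8.8, 10.7 and 8.0%, so that its groups overlapped on this scale but not as a ratio to Ms4a6d. Shares sum to a whole, so a lower share of some members raises that of the others.

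Ms4a7 was listed as several transcripts. The main transcript, of 7 exons and 234 codons, held most counts, and a 6-exon transcript of 215 codons that lacks exon 4 held 7.83 and 9.27% with WT 4T1 cells and 11.7, 9.30 and 11.2% with Adam17-/- 4T1 cells. All 3 Adam17-/- shares were above the WT shares, narrowly so for replicate 2. The remaining transcript, with another first exon (267 codons) had 3.48 and 3.47 estimated counts in Adam17-/- replicates 2 and 3 and none in the other libraries. The skipped exon (chr19:11325807-11325863, minus strand) is 57 coding bases, or 19 codons, and is printed as the stretch by which the 2 main products differ.
Ms4a7 exon 4: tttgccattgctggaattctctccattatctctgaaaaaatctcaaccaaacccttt

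These shares are estimates from reads that the transcripts have in common, and no test was made of them. Ms4a6c had a short second transcript with 3.35 to 3.93% of its counts with WT 4T1 cells and 3.13 to 3.87% with Adam17-/- 4T1 cells. Taking only the most abundant transcript of each gene left Ms4a7 and Ms4a6b lower, whereas Ms4a6c did not pass (log2 fold change −0.41, edgeR adjusted p = 0.0623).

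Outside the 10 members, the precursor gene Ms4a3 moved the other way. It had 6 and 8 counts with WT 4T1 cells and 26, 50 and 27 counts with Adam17-/- 4T1 cells, or 0.374 ± 0.0841 CPM (SD, n = 2) against 2.05 ± 1.08 CPM (SD, n = 3). The groups did not overlap, and the log2 fold change was 2.41 (SE 0.52, edgeR adjusted p = 0.0084). Ms4a1 had 3 and 1 counts against 5, 6 and 3, Ms4a2 had at most 2 counts and Ms4a5 at most 1 count in any library, all under the filter. No transcript of Ms4a10, Ms4a13, Ms4a15, Ms4a18 or Ms4a20 was listed. Tmem176b, a related membrane protein gene on another chromosome, was 208 ± 20.8 CPM (SD, n = 2) against 215 ± 39.5 CPM (SD, n = 3), with a log2 fold change of 0.04 (edgeR adjusted p = 0.831), and its neighbor Tmem176a had a log2 fold change of 0.31 (edgeR adjusted p = 0.164).

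Genes whose products pair with MS4A proteins, or signal through the same receptors, were compared next. Of 12 tested, 3 fell and 2 rose, with a median log2 fold change of −0.08, beside 16.8% lower and 14.9% higher among all genes, so the list did not stand out by its counts. Clec7a, which encodes Dectin-1, rose from 82.1 and 74.2 CPM to 153, 187 and 148 CPM (log2 fold change 1.06, SE 0.12, edgeR adjusted p = 0.000532), while Ms4a4a, the gene of its partner, did not pass. Kit, a growth factor receptor gene of mast cells and precursors, rose from a low level (log2 fold change 1.10, SE 0.37, edgeR adjusted p = 0.0471). Cd14, the lipopolysaccharide coreceptor, fell by 0.54 on the log2 scale (edgeR adjusted p = 0.0074), and Plcg2, a phospholipase downstream of immune receptors, fell by 0.53 (edgeR adjusted p = 0.0014). Tyrobp, which encodes the adaptor DAP12, fell by 0.46 (edgeR adjusted p = 0.0033). Syk, the kinase downstream of Dectin-1, had a log2 fold change of 0.10 (edgeR adjusted p = 0.405), and Trem2, the DAP12-coupled receptor gene, −0.08 (edgeR adjusted p = 0.47). Vsig4 was near the floor, at 7 to 16 counts in each library.

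Levels of cell type markers moved with the groups, and their part in the results on the members was not tested. In bulk RNA, fewer cells of a type and less RNA per cell cannot be told apart. Of all genes tested, 16.8% were lower and 14.9% higher, and the counts of each list below stand beside these shares. Of 7 macrophage markers, 5 fell and 0 rose (median log2 fold change −0.64). Their summed level, mostly Lyz2, Itgam and Csf1r, was 27100 to 27800 CPM with WT 4T1 cells and 17600 to 19500 CPM with Adam17-/- 4T1 cells. Cd68, a lysosomal protein gene, fell by 0.93 on the log2 scale (edgeR adjusted p = 0.0012), Adgre1, which encodes F4/80, fell by 0.66 (edgeR adjusted p = 0.001) and Lyz2, lysozyme, fell by 0.65 (edgeR adjusted p = 0.0015). Csf1r and Mertk, receptor genes of macrophages, did not pass (log2 fold changes −0.29 and −0.06, edgeR adjusted p = 0.052 and 0.572), as Ms4a6d and Ms4a4a did not. Of 8 resident-like macrophage genes tested out of 11, 7 fell and 0 rose (median −1.21). Among them were Cd163 (log2 fold change −1.52, edgeR adjusted p = 0.000372), Cbr2 (−1.38, adjusted p = 0.0038) and Mrc1 (−1.28, adjusted p = 0.000145). The summed level of the list, of which Stab1 was the largest part, was 8080 to 8900 CPM against 4560 to 5090 CPM.

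Monocyte genes were split. Of 7 tested, 4 rose and 1 fell (median log2 fold change 0.58), the share lower being near that of all genes. Ly6c2, a surface marker of classical monocytes, rose by 1.81 on the log2 scale (edgeR adjusted p = 0.000713) and Spn, which encodes CD43, by 0.96 (edgeR adjusted p = 0.0028), whereas Vcan, a matrix proteoglycan gene of classical monocytes, fell by 1.29 (edgeR adjusted p = 0.000421). The summed level of this list, of which Vcan was the largest part with WT 4T1 cells, was 1170 to 1550 CPM against 779 to 825 CPM.

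Granulocyte precursor markers rose, 6 of 8 tested, with none lower (median log2 fold change 1.81). Ltf, lactoferrin, rose by 2.18 (edgeR adjusted p = 0.000145), Camp by 2.04 (adjusted p = 0.0148) and Ngp by 1.97 (adjusted p = 0.000145), both genes of neutrophil granule proteins. Their summed level was 84.6 to 112 CPM with WT 4T1 cells and 295 to 450 CPM with Adam17-/- 4T1 cells, and Ms4a3 is 1 of the genes in this list. All genes of this list except Camp were highest in Adam17-/- replicate 2. There Ms4a3, Mpo, which encodes myeloperoxidase, and Elane, neutrophil elastase, were at 3.29, 63.2 and 37.0 CPM. Mpo (log2 fold change 1.64, edgeR adjusted p = 0.0581) and Ctsg (1.57, adjusted p = 0.138) did not pass.

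Type I interferon genes, given because Ms4a4c is interferon-responsive and because of the motif searched above, were tested as well. Of 14, 4 rose and 0 fell (median log2 fold change 0.12), beside 14.9% higher and 16.8% lower among all genes tested. Those that rose were Mx1 (log2 fold change 0.60, edgeR adjusted p = 0.018), Ifit2 (0.56, adjusted p = 0.0351), Usp18 (0.55, adjusted p = 0.0243) and Ifi204 (0.47, adjusted p = 0.0046), genes of antiviral response. The summed level was 650 to 655 CPM against 682 to 708 CPM.

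Markers of lymphocytes and of cancer cells were low. B cell markers summed to 19.3 to 31.1 CPM with WT 4T1 cells and 27.5 to 37.0 CPM with Adam17-/- 4T1 cells, with 0 of 3 tested passing, Pax5 at most 2 counts and Cd22 the largest part. T and NK cell markers summed to 1.62 to 3.40 CPM against 2.46 to 4.80 CPM, with 0 of 1 tested passing and no transcript of Cd3g listed. Mast cell and basophil markers summed to 5.79 to 10 CPM against 14.5 to 19.3 CPM, with 2 of 3 tested higher, Hdc and Kit, and Fcer1a at most 1 count. Dendritic cell markers summed to 10.6 to 16.1 CPM against 19.7 to 26.9 CPM, with 2 of 5 tested higher, Clec9a (log2 fold change 1.38, edgeR adjusted p = 0.0018) and Ccr7 (1.32, adjusted p = 0.0067). Mammary carcinoma epithelial markers summed to 11.0 to 12.6 CPM against 11.9 to 13.8 CPM, with 0 of 1 tested passing and Cdh1 nearly the whole of the sum.

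On chromosome 19, the nearest tested protein-coding genes outside the MS4A family were examined for the same comparison. Before the cluster, Prpf19, a splicing factor gene, was lower (59.5 and 54.3 against 39.2, 39.0 and 41.0 CPM, log2 fold change −0.52, edgeR adjusted p = 0.0027), and Ccdc86 did not pass (−0.14, adjusted p = 0.30). After it, beyond Ms4a3, which rose as described above, Mrpl16, a mitochondrial ribosome gene (−0.34, edgeR adjusted p = 0.132), and Stx3, a membrane fusion gene (0.08, adjusted p = 0.518), did not pass. Between the members lay 1 other protein-coding gene that was tested, Gm8369, with 7 to 12 counts in each library (−0.28, edgeR adjusted p = 0.658). Members that passed and members that did not were interspersed, since Ms4a4a, Ms4a4c and Ms4a4b lie between Ms4a7 and Ms4a6c. On the opposite strand, Gm5692 overlaps Ms4a4c by 235 bases, Gm19261 overlaps Ms4a6b by 442 bases and BE692007 overlaps Ms4a6c by 12027 bases in the annotation. None of these had a listed transcript, and how the counting used strand is not given in the sources used here, so reads from the opposite strand cannot be told apart.

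Finally, genes with the most similar pattern over the 5 libraries were sought by the root mean square difference of centred log2 CPM, a description in which all genes share the same libraries. Nearest to Ms4a6d were Dnaja1 (0.0195), a chaperone gene, Rab10 (0.0203) and Cdc42 (0.0208), small GTPase genes, Eps15 (0.0275), an endocytosis gene, and Ptar1 (0.028). Nearest to Ms4a7 were Timm10 (0.0602), a mitochondrial import gene, Gm1943 (0.0709), Ropn1l (0.0844), Lpxn (0.0846), an adhesion adaptor gene, and Abcb1b (0.0866), a drug transporter gene. Among the members themselves, Ms4a4a and Ms4a6d differed by 0.0537 and Ms4a6c and Ms4a6b by 0.0903, whereas Ms4a7 and Ms4a6b differed by 0.16. Ms4a6b lay farther from Ms4a4a (0.202) and Ms4a6d (0.214) than from Ms4a7. WT replicate 2 was 1.20- to 1.29-fold above WT replicate 1 for Ms4a6d, Ms4a4a, Ms4a6c and Ms4a6b and 0.999-fold for Ms4a7.

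**Figure D5:**
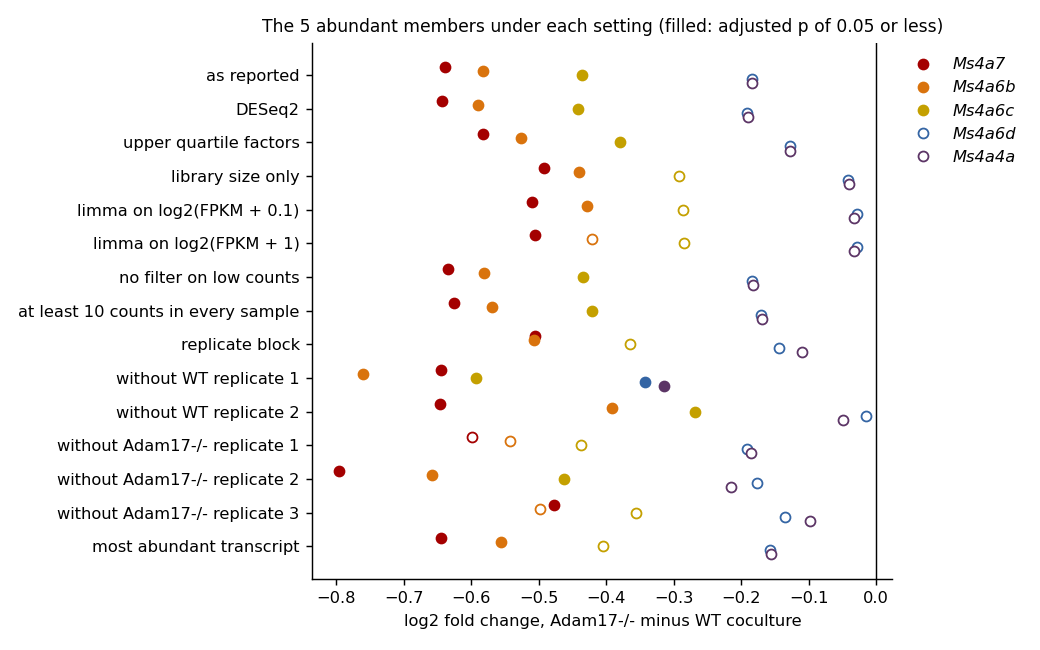
Log2 fold change (Adam17-/- minus WT coculture) of the 5 abundant members as reported and under each alternative test, scaling, filter or set of libraries, filled where the adjusted p was 0.05 or less. All points lie below 0. Without Adam17-/- replicate 1 no member is filled, and without WT replicate 1 all 5 are, in a fit whose spread comes from the Adam17-/- libraries alone.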

How the data were processed

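Poly-A RNA libraries of 5 BMDM cultures (2 with WT and 3 with Adam17-/- 4T1 cells) were sequenced on BGISEQ-500. Per transcript, the authors deposited expected counts (estimated counts, not normalized), FPKM (scaled to transcript length and to the fragments of the library) and transcript length. Their methods and processing notes name HISAT, Bowtie2, RSEM and DESeq2 and the mm10 build, with no versions. The files list only transcripts with an FPKM of 0.01 or more, and a gene not listed in a library was taken as 0 counts.

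Expected counts were summed per gene ID and rounded (17058 genes, 17015 matched to a RefSeq symbol), scaled with TMM factors (0.92 to 1.05), filtered with filterByExpr and tested in edgeR 4.0.16 (R 4.3.3) with group as the only term. CPM use the library totals over the genes tested (14650586 to 20780019 counts) multiplied by these factors. FPKM, summed per gene, served to compare levels between genes. DESeq2 1.42.0, limma 3.58.1 on log2(FPKM + 0.1) and log2(FPKM + 1), other scalings and filters, a replicate block, leaving out each library, a stricter threshold and single transcripts were alternatives; summing Ms4a6b with Ms4a6d and the ratios to Ms4a6d were chosen after the data were seen. In simulated counts of 12443 genes with 200 changed, edgeR recovered 196 and called 8 wrongly. The planted changes were larger than that of any member tested, and all genes had the same dispersion. The simulation therefore does not measure the power for changes as small as those of the members.

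The members and lists were chosen with earlier results of these data known, and 1 gene of the macrophage marker list is not reported here. Genes named were all members, the list of other MS4A and related genes, and the 2 to 4 genes of a list with the largest change among those that passed. Markers at or near 0 and the 2 nearest tested protein-coding genes outside the MS4A family on each side were also named. So were Gm8369 between the members, the genes that overlap members, and the 5 genes of most similar pattern to the highest member and to the most changed one. Other genes named (Adam17, Tyrobp, Syk, Trem2, Vsig4, Csf1r, Mertk, Itgam, Stab1, Mpo, Elane, Ctsg, Cd22, Cdh1) were chosen after their values were seen. Coding sequences, not proteins, were aligned with Biopython 1.88, in place of the planned protein comparison.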

Additional observations from a re-analysis of the deposited data

How the results depend on the processing

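The count of 3 members lower was also 3 with DESeq2, upper quartile factors, no filter and at least 10 counts in every sample. It was 2 with library size only, with limma on log2(FPKM + 0.1) and with the most abundant transcript, and 1 (Ms4a7) with limma on log2(FPKM + 1). It was 0 when the log2 fold change also had to reach 1 in either direction, and ranged from 0 to 5 when 1 library was left out, where a lone WT library was assumed to vary like the Adam17-/- libraries. The count of members higher was 0 under each of these. Ms4a7, Ms4a6b, Ms4a6c, Ms4a6d and Ms4a4a stayed below 0 and Ms4a4c above 0 under all alternatives run, and Ms4a7 passed in 13 of 14, Ms4a6b in 11 of 15 (the sum with Ms4a6d, made up mostly of Ms4a6d counts, is 1 of those in which it did not) and Ms4a6c in 7 of 14. With 1 library left out, Ms4a7 ranged from −0.80 to −0.48, Ms4a6b from −0.76 to −0.39, Ms4a6c from −0.59 to −0.27, Ms4a6d from −0.34 to −0.01, Ms4a4a from −0.31 to −0.05, Ms4a4c from 0.15 to 0.46 and Ms4a4b from −0.50 to 0.62. Ms4a4b, at 8 to 17 counts, turned above 0 with upper quartile factors (0.0201), library size only (0.11), limma with 0.1 (0.15) or 1 (0.0428) added and the replicate block (0.0294). The cause was not tested.

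With the replicate number as a block, 2 members were lower (Ms4a7 −0.51 and Ms4a6b −0.51) and Ms4a6c did not pass. Only the Adam17-/- group has a replicate 3, so this fit takes the difference from replicates 1 and 2 alone. Without Adam17-/- replicate 3 and with no block, the values were −0.48 for Ms4a7, −0.50 for Ms4a6b and −0.36 for Ms4a6c. Deviations of same-numbered libraries correlated at −0.124 and −0.05, values that rest on a single WT contrast and do not show that the numbers pair the libraries. Over all genes the calls with the block were 1126 lower and 1216 higher, against 2114 and 1869 without it. Leaving out Adam17-/- replicate 3 with no block gave 1237 lower and 1208 higher. Scaling shifted all genes: the share of calls that were higher was 46.9% with TMM, 57.9% with upper quartile factors, 73.7% with library size only and 74.2 and 73.9% with limma. The all-gene median on the log2 scale was then 0.16, 0.15 and 0.11 with library size only and with limma at the smaller and larger pseudocount, in place of 0.01. Calls over all genes without 1 library ran from 926 to 2940 lower and 1089 to 2460 higher. With 8 to 17 counts Ms4a4b has an interval of −1.01 to 0.93, and counting depth limits Ms4a8a and Ms4a4d most.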
